A study of Canis lupus familiaris with 8 samples.

Results

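The genes of the ON bipolar mGluR6 cascade were followed in dog retina prepared in 2 ways. They are 10 genes chosen by their role, GRM6, GNAO1, TRPM1, NYX, LRIT3, GPR179, RGS11, RGS7, PCP2 and PRKCA. All 10 were found by symbol among the 12824 genes of the deposited table of log2 CPM. CPM are reads scaled by library size, but the deposited libraries did not sum to a common total, as described with the processing. PFA-fixed retina (4 libraries) came from left eyes held in 4% paraformaldehyde, a crosslinking fixative, for 3 hours and in 2% for 24 hours more, then passed through 15% and 30% sucrose before freezing in embedding medium. Fresh-frozen retina (4 libraries) came from right eyes frozen in that medium with neither fixation nor sucrose. Both groups were wild-type male Beagles aged 31 weeks. Fixed samples were extracted with a kit for paraffin-embedded tissue, with 18 hours of proteinase K at 56 °C, and unfixed samples with a kit for small fresh samples, while 1 stranded total RNA kit for low input made all 8 libraries. Preparation, side of the eye and extraction kit therefore differ together between the groups and cannot be told apart. The labels give the 4 libraries of a group as biological replicates and do not say which dog each came from, so the p-values measure only the spread between these libraries.

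ON bipolar cells are the retinal interneurons that depolarize when light falls on photoreceptors. In the dark, glutamate from the photoreceptor terminal activates the metabotropic receptor mGluR6 on their dendrites. The receptor activates the G protein Go, and this closes the cation channel TRPM1. Light ends the glutamate release, GTPase-accelerating RGS proteins switch Go off, and the channel opens. Loss of the receptor, the channel, or the proteins that hold them at the dendritic tip abolishes this response and causes complete congenital stationary night blindness in people. LRIT3 is also the gene of an inherited night blindness described in Beagles.

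The spacing of low values in the table gave effective depths of 11060000 to 15340000 reads in PFA-fixed and 21570000 to 22810000 reads in fresh-frozen libraries. Depth thus differed with the preparation, and its part in the results was not tested. The rod genes that mark retina were high in all libraries, with the 14 rod markers summing to 27104 to 31806 CPM in PFA-fixed and 24377 to 28774 CPM in fresh-frozen retina. Fresh-frozen replicate 1 stood apart in myelin genes, which were added as a list after the data were seen. Its MBP, a gene of the myelin sheath, was at 8.72 log2 CPM, against 4.61 to 5.31 log2 CPM in the other 3 fresh-frozen libraries. Markers of other cell types moved with the preparation, since all 5 fibroblast markers fell and summed to 20.2 to 41.1 CPM in PFA-fixed and 6508 to 9623 CPM in fresh-frozen retina. Of 4 endothelial markers 3 fell, with log2 changes of -3.26 for PECAM1, -2.98 for CDH5 and -2.98 for CLDN5. All 4 summed to 272 to 357 CPM in PFA-fixed and 382 to 510.0 CPM in fresh-frozen retina. Most of that sum was KDR, at 8.19 and 8.35 log2 CPM, which was not called (-0.16; limma adjusted p = 0.243). Of 6 Müller glia markers, 3 fell and none rose, with sums of 3015 to 4068 CPM in PFA-fixed and 5324 to 7451 CPM in fresh-frozen retina. The log2 changes were -3.17 for RLBP1, -1.12 for VIM and -0.61 for GLUL, while SLC1A3, DKK3 and AQP4 were not called. Bulk libraries do not show which cells expressed these markers, so the fall is not placed in Müller glia. The part of all these cell types in the changes below was not tested. Results that rest on fresh-frozen replicate 1 are given with and without it below.

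Most of the cascade was higher in PFA-fixed than in fresh-frozen retina. GRM6, TRPM1, LRIT3, GPR179, RGS11, PRKCA and RGS7 rose, PCP2 fell, and GNAO1 and NYX did not pass the test (limma with Benjamini-Hochberg adjustment over all 12824 genes, adjusted p under 0.05). The 7 that rose compare with 33.9% of all genes called higher, the 1 that fell with 34.7% called lower, and the 8 called in either direction with 68.7%. The groups did not overlap in 6 genes that were higher and 1 that was lower in fixed retina, against 31.3% and 31.6% of all genes. When changes were required to exceed 1.5-fold (limma's treat), GRM6, TRPM1, LRIT3, RGS11 and PRKCA passed upward and none downward, where 11.9% of all genes passed upward and 14.1% downward. The median log2 change of the 10 genes was 0.83, beside -0.02 over all genes. The libraries are of bulk tissue, so the number of cells of a type and the RNA per cell cannot be told apart in any of these changes.

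**Figure D1:**
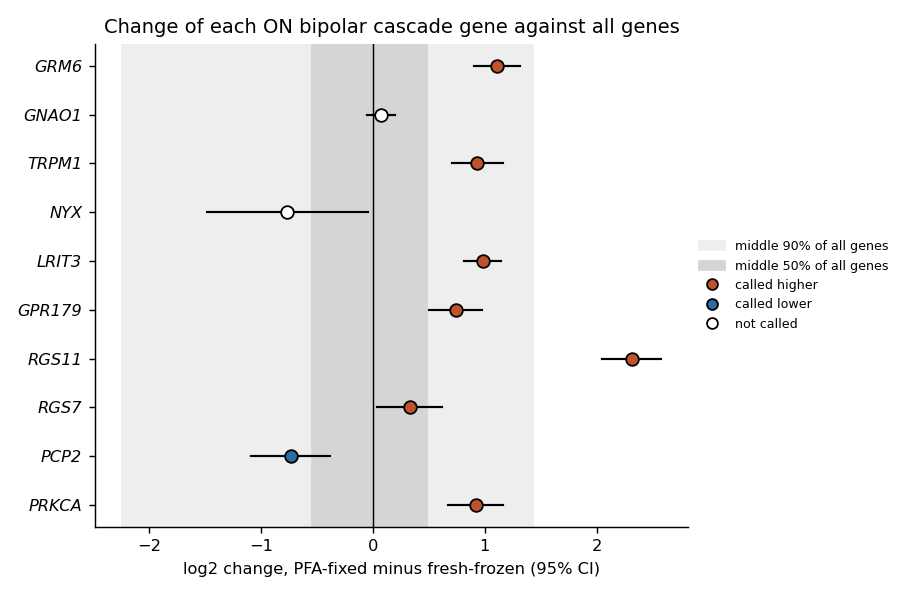
The log2 change of each of the 10 genes (PFA-fixed minus fresh-frozen, horizontal axis) is drawn with its 95% confidence interval from limma, over bands from the 25th to the 75th and from the 5th to the 95th percentile of all 12824 genes. RGS11 at 2.31 lies beyond the upper end of the wider band at 1.43, the other genes lie inside it, and NYX has the widest interval.

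GRM6 encodes mGluR6 itself. It was at 7.67, 7.68, 7.47 and 7.60 log2 CPM in PFA-fixed replicates 1 to 4, against 6.64, 6.22, 6.57 and 6.57 in fresh-frozen replicates 1 to 4. Every fixed library was above every fresh-frozen one, and fresh-frozen replicate 2 was the lowest of all. The means were 7.61 ± 0.10 and 6.50 ± 0.19 log2 CPM in PFA-fixed and fresh-frozen retina (SD, n = 4 each), a log2 change of 1.11 ± 0.09 (SE) or 2.15-fold (95% CI 1.87 to 2.48; limma adjusted p = 7.80e-07). This change exceeded that of 91.2% of all genes.

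GNAO1 encodes the alpha subunit of Go, the G protein that mGluR6 activates, and is expressed by many other neurons. Its values were 8.35, 8.36, 8.38 and 8.22 log2 CPM in the 4 fixed libraries, against 8.28, 8.23, 8.26 and 8.24 in the fresh-frozen ones. The groups overlapped, since PFA-fixed replicate 4 was the lowest of the 8 libraries. The log2 change was 0.07 (95% CI -0.05 to 0.20; limma adjusted p = 0.275), and the SD among the 4 fresh-frozen libraries was 0.02. The call and sign of GNAO1 depended on the scaling, with -0.03 under quantile normalization, 0.15 and called higher after centring on library medians, and -0.23 and called lower after centring on the rod markers. Among markers of other neurons that use Go, the 10 amacrine genes summed to 542 to 653 CPM in PFA-fixed and 556 to 674 CPM in fresh-frozen retina. Of these, 4 rose, 4 fell and 2 were not called. Of the 7 measured ganglion cell genes, 1 rose and 5 fell, with sums of 2053 to 3090 CPM in fixed and 1905 to 3742 CPM in fresh-frozen retina. The part of these cells in the value of GNAO1 was not tested.

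TRPM1 is the cation channel at the end of the cascade. Fixed libraries held it at 10.46, 10.52, 10.41 and 10.11 log2 CPM, and fresh-frozen libraries at 9.57, 9.53, 9.20 and 9.47. The groups were well apart, with PFA-fixed replicate 4 lowest among the fixed and fresh-frozen replicate 3 lowest among the unfixed. The change was 0.93 ± 0.10 (SE) on the log2 scale, or 1.91-fold (95% CI 1.63 to 2.24; limma adjusted p = 8.68e-06).

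TRPM1 was first known as melastatin, a gene of melanocytes, and pigment cells lie next to the retina. Of 8 melanocyte markers, 7 fell in PFA-fixed retina. The sum of all 8 was 98.4 to 106 CPM in PFA-fixed, against 1451 to 2219 CPM in fresh-frozen retina. All 6 pigment epithelium markers fell as well, with sums of 61.6 to 115 CPM in PFA-fixed and 1460 to 2328 CPM in fresh-frozen retina. The melanin enzyme gene DCT fell by 7.77 on the log2 scale and the melanosome genes PMEL and TYRP1 showed the same direction, as PMEL fell by 6.29 and TYRP1 fell by 6.23. The melanosomal transporter gene SLC45A2 was the marker not called, at a change of -0.01. At a mean of 6.26 log2 CPM in PFA-fixed retina, SLC45A2 made up most of the sum of the 8 markers there. MLANA, picked after its values were seen, was at the lowest value of the table in PFA-fixed replicate 4. TRPM1 thus rose where 7 of the 8 melanocyte markers fell. How much of the fresh-frozen level of TRPM1 comes from pigment cells was not tested.

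LRIT3 and NYX encode leucine-rich repeat proteins of the synaptic cleft, and in the mouse both are needed for TRPM1 to reach the dendritic tips. LRIT3 was at 6.91, 6.70, 6.79 and 6.89 log2 CPM in fixed libraries, against 5.70, 5.96, 5.87 and 5.84 in fresh-frozen ones. The 2 sets were far apart compared with their own spread. LRIT3 rose by 0.98 ± 0.08 (SE) on the log2 scale, or 1.97-fold (95% CI 1.76 to 2.22; limma adjusted p = 4.26e-07). Its symbol matched a gene whose span overlaps that of RRH in the RefSeq gene table, and RRH was not among the genes analysed here. PCP2 and PRKCA also overlapped other protein-coding genes there, and TRPM1, GNAO1, RGS7 and PRKCA overlapped noncoding genes. None of these neighbours was found by symbol among the genes analysed.

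NYX, the gene of X-linked complete night blindness, had few reads and the widest interval of the 10. It was at 0.12, 0.03, 0.63 and -0.12 log2 CPM in PFA-fixed replicates 1 to 4, against 0.12, 1.09, 1.32 and 1.18 in fresh-frozen replicates 1 to 4. At the estimated depths this is about 10.01 to 21.9 reads per fixed library and 20.9 to 52.9 reads per fresh-frozen library. Fresh-frozen replicate 1, the library with high myelin genes, lay within the range of the fixed libraries, and the other 3 lay above it. The change of -0.76 ± 0.33 (SE) on the log2 scale did not pass (95% CI -1.48 to -0.05; limma adjusted p = 0.0561). Without fresh-frozen replicate 1 it was -1.03 and passed (limma adjusted p = 0.00809), and without PFA-fixed replicate 3 it was -0.92 (limma adjusted p = 0.0395). NYX and LRIT3, whose products act at the same place, therefore had changes of opposite sign, of which only that of LRIT3 passed.

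**Figure D2:**
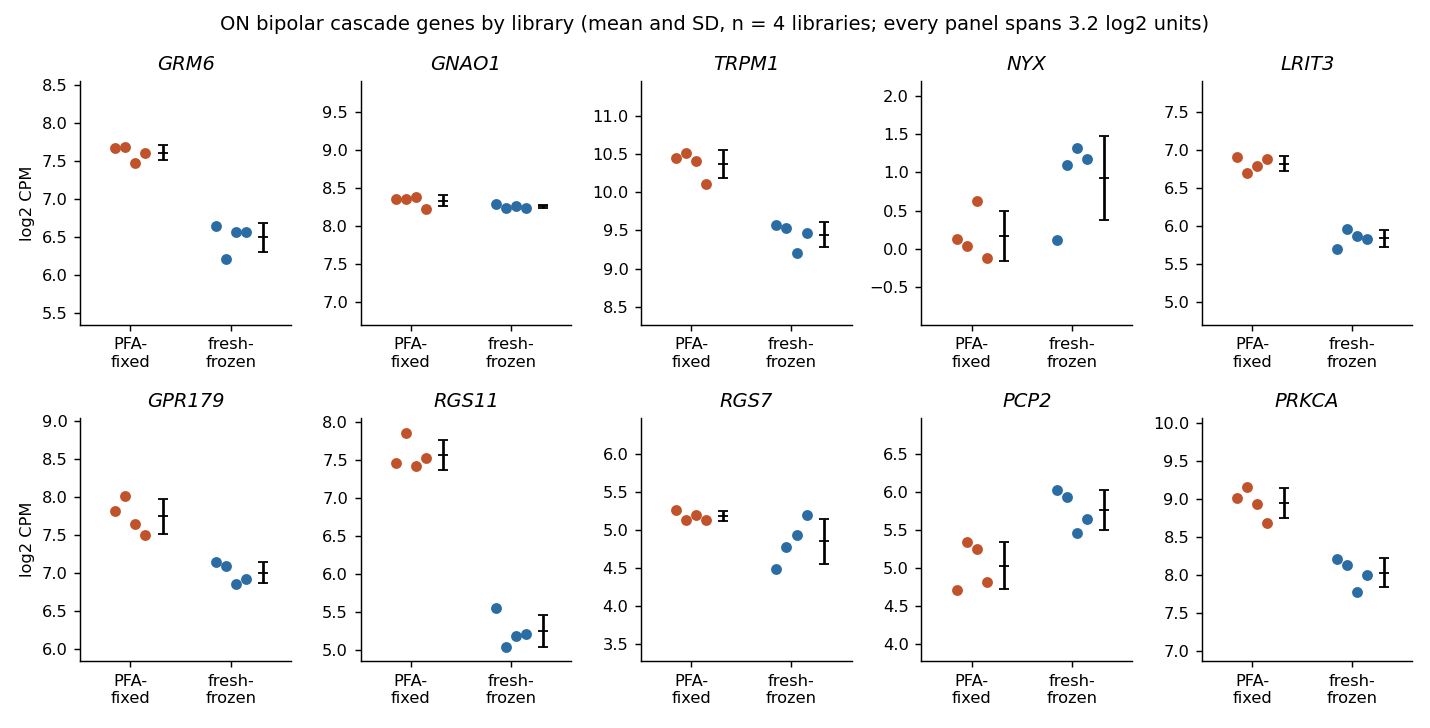
Each panel shows 1 gene, with log2 CPM on the vertical axis, the 4 PFA-fixed libraries on the left, the 4 fresh-frozen libraries on the right in replicate order, and a bar for the mean and SD. Panels have different positions but equal length of axis, so that the gap in RGS11 (7.57 against 5.25) can be set beside the near-equal means of GNAO1 (8.33 against 8.25).

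GPR179, RGS11 and RGS7 belong to the module that ends the G protein signal. GPR179 is an orphan receptor that tethers the RGS proteins at the dendritic tip, and RGS11 and RGS7 speed up GTP hydrolysis by Go, acting redundantly in the mouse. GPR179 was at 7.82, 8.02, 7.64 and 7.50 log2 CPM in fixed libraries, against 7.14, 7.09, 6.86 and 6.92 in fresh-frozen ones. These ranges did not overlap. GPR179 rose by 0.74 ± 0.11 (SE) on the log2 scale, or 1.67-fold (95% CI 1.42 to 1.97; limma adjusted p = 7.50e-05), but did not pass the 1.5-fold test (limma adjusted p = 0.272).

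RGS11 had the largest change of the 10. It was at 7.46, 7.86, 7.42 and 7.52 log2 CPM in PFA-fixed replicates 1 to 4, against 5.55, 5.05, 5.20 and 5.21 in fresh-frozen replicates 1 to 4. The lowest fixed library exceeded the highest fresh-frozen one by far more than the spread within either group. The means were 7.57 ± 0.20 and 5.25 ± 0.21 log2 CPM in PFA-fixed and fresh-frozen retina (SD, n = 4 each). RGS11 rose by 2.31 ± 0.12 (SE), or 4.97-fold (95% CI 4.14 to 5.96; limma adjusted p = 1.51e-08), more than 99.1% of all genes.

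RGS7, also present in other retinal neurons, had a smaller change. Fixed libraries held it at 5.26, 5.13, 5.19 and 5.13 log2 CPM, and fresh-frozen libraries at 4.48, 4.78, 4.94 and 5.20. Fresh-frozen replicate 4 lay within the fixed range, and the other 3 lay below it. The SD was 0.06 among fixed and 0.30 among fresh-frozen libraries. RGS7 rose by 0.33 ± 0.13 (SE; limma adjusted p = 0.0434). The call was lost when any PFA-fixed library, or fresh-frozen replicate 1 or 2, was left out. Without fresh-frozen replicate 1 the change was 0.21 (limma adjusted p = 0.117), and after centring on the rod markers it was 0.03 (limma adjusted p = 0.887).

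PCP2 and PRKCA are used as markers of ON and rod bipolar cells. PCP2, also known from cerebellar Purkinje cells, encodes a small protein that binds G protein alpha subunits. It was at 4.72, 5.34, 5.24 and 4.81 log2 CPM in fixed libraries, against 6.03, 5.93, 5.46 and 5.64 in fresh-frozen ones. PFA-fixed replicates 1 and 4 were lowest, and the highest fixed library lay just under the lowest fresh-frozen one. PCP2 fell by 0.74 on the log2 scale (SE 0.16; limma adjusted p = 0.00160), to 0.601 of its fresh-frozen level (95% CI 0.470 to 0.767).

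PRKCA encodes protein kinase C alpha, the standard marker of rod bipolar cells, found in some other cells as well. Its values were 9.02, 9.16, 8.93 and 8.69 log2 CPM in fixed libraries, against 8.22, 8.13, 7.78 and 8.002 in fresh-frozen ones. PFA-fixed replicate 4 and fresh-frozen replicate 3 were lowest in their groups, as for TRPM1. PRKCA rose by 0.92 ± 0.11 (SE), or 1.89-fold (95% CI 1.59 to 2.24; limma adjusted p = 1.73e-05). Its pass in the 1.5-fold test (limma treat adjusted p = 0.0254) was lost without PFA-fixed replicate 1 or 2 or fresh-frozen replicate 3 or 4, where adjusted p was 0.0688, 0.0822, 0.0695 and 0.0570. The 2 bipolar markers thus differed in direction, and both groups of libraries were separate in each.

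The libraries of a group were not ordered the same way in every gene. PFA-fixed replicate 2 was the highest fixed library in 6 genes (GRM6, TRPM1, GPR179, RGS11, PCP2 and PRKCA), and PFA-fixed replicate 4 the lowest in 5 (TRPM1, NYX, GPR179, GNAO1 and PRKCA). Fresh-frozen replicate 1 was the highest of its group in 7 genes and the lowest in the remaining 3, which were NYX, LRIT3 and RGS7. Summed over the 10 genes, the cascade took 0.250 to 0.311% of the table's CPM in PFA-fixed and 0.155 to 0.187% in fresh-frozen retina. TRPM1 alone made up 43.2 to 46.6% of that sum in fixed and 39.3 to 43.0% in fresh-frozen libraries.

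Ratios of 2 genes within a library do not change when a constant is added to all log2 values of that library, as in the centring scalings, but do change under quantile normalization. They are given as log2 ratios of CPM, with no test, for pairs chosen by role after the values were seen. The ratio of PRKCA to TRPM1 was -1.44, -1.37, -1.48 and -1.42 in PFA-fixed replicates 1 to 4 and -1.35, -1.40, -1.43 and -1.47 in fresh-frozen replicates 1 to 4. The groups lay on top of each other here, although both genes rose. Receptor to channel, GRM6 to TRPM1, ranged from -2.94 to -2.51 in fixed and -3.31 to -2.63 in fresh-frozen libraries, which overlap. LRIT3 to TRPM1 overlapped too, at -3.82 to -3.22 in fixed and -3.87 to -3.34 in fresh-frozen retina.

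Other pairs of this choice were separate between the preparations. Most of the 45 pairs among the cascade genes were separate too, so separation does not set the chosen pairs apart. The change of a log2 ratio is the difference between its 2 single-gene changes given above. Pairs of genes outside the cascade were not examined. The log2 ratio of GRM6 to GNAO1, receptor to G protein, was -0.91 to -0.62 in PFA-fixed and -2.02 to -1.64 in fresh-frozen libraries. RGS11 to RGS7 was 2.19 to 2.74 in PFA-fixed and 0.01 to 1.07 in fresh-frozen libraries, so the 2 GTPase-accelerating genes stood in another proportion in every fixed library than in any fresh-frozen one. RGS11 to its anchor GPR179 was -0.36 to 0.03 in fixed and -2.04 to -1.59 in fresh-frozen retina. RGS7 to GPR179 overlapped, at -2.89 to -2.36 in fixed and -2.66 to -1.72 in fresh-frozen retina. PCP2 to PRKCA was -4.30 to -3.69 in fixed and -2.36 to -2.19 in fresh-frozen libraries. NYX to LRIT3 was -7.01 to -6.16 in fixed and -5.58 to -4.54 in fresh-frozen libraries, with fresh-frozen replicate 1 nearest to the fixed ones.

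**Figure D3:**
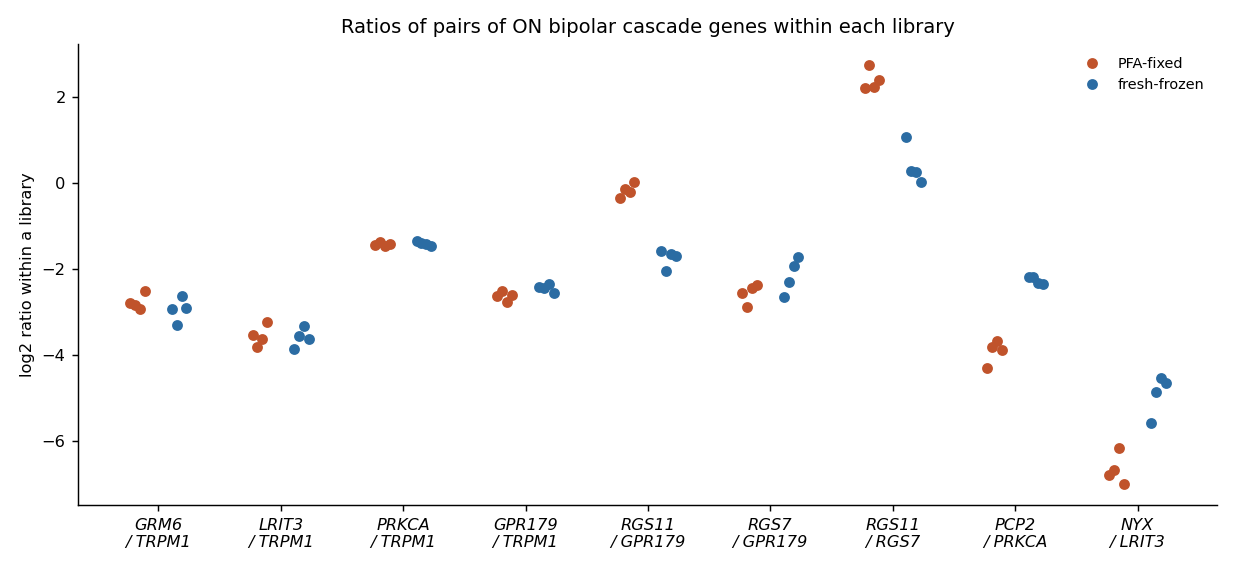
Each point is the log2 ratio of 2 genes of the cascade within 1 library (vertical axis), with PFA-fixed libraries left of fresh-frozen ones for each pair. The groups overlap for GRM6, LRIT3, PRKCA and GPR179 over TRPM1 and for RGS7 over GPR179, and are separate for RGS11 over GPR179 and over RGS7, for PCP2 over PRKCA and for NYX over LRIT3.

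Of 7 genes listed as postsynaptic partners of the cascade, 1 rose, 1 fell and 5 were not called, with a median log2 change of 0.01. The bulk libraries do not show which cells expressed these genes, so the list is not limited to ON bipolar cells. GNB3, the beta subunit of the ON bipolar G protein, rose by 0.49 (limma adjusted p = 0.00275; 0.19 and not called with rod marker centring). GNB5, the obligate partner of RGS7 and RGS11, differed by -0.16 (limma adjusted p = 0.1501; -0.34 and called lower with quantile normalization, -0.47 and called lower with rod marker centring, 0.21 with centring on the bipolar identity list). LRIT1, a leucine-rich repeat relative of LRIT3, fell by 0.54 (limma adjusted p = 5.77e-05; -0.16 and not called with bipolar list centring).

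Genes of bipolar identity outside the cascade went both ways. Of 12 measured, 4 rose and 4 fell, and their median was -0.11. OTX2, shared with photoreceptors, rose by 0.18 (limma adjusted p = 0.0366; -0.12 with rod marker centring), and was called in 2 of the 8 fits that leave out a library. CA8, a carbonic anhydrase-related gene of bipolar cells that also marks Purkinje cells, fell by 3.51 ± 0.26 (SE; limma adjusted p = 2.94e-07), and BHLHE22 fell by 0.87 (-0.50 and not called with bipolar list centring). CA8 averaged 1.37 ± 0.51 log2 CPM in PFA-fixed and 4.88 ± 0.41 log2 CPM in fresh-frozen retina (SD, n = 4 each). TRNP1 fell by 0.81 (limma adjusted p = 0.0285), and was called in 3 of the 8 fits that leave out a library. It was not called under quantile normalization (-0.50) or bipolar list centring (-0.44).

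The 7 measured genes of OFF bipolar cells, which answer glutamate with ionotropic receptors instead of mGluR6, had a median change of 0.21, with 1 higher and 1 lower. The kainate receptor gene GRIK1 differed by 0.23 (limma adjusted p = 0.387; -0.07 with rod marker centring and 0.61, called, with bipolar list centring). NETO1, an auxiliary subunit of kainate receptors, rose by 0.45 (limma adjusted p = 0.0193; not called with rod marker centring or without PFA-fixed replicate 1 or 4 or fresh-frozen replicate 1). PRKAR2B, a kinase regulatory subunit gene, fell by 0.49 (-0.11 and not called with bipolar list centring). Whether ON and OFF genes differed in their change was not tested.

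**Figure D4:**
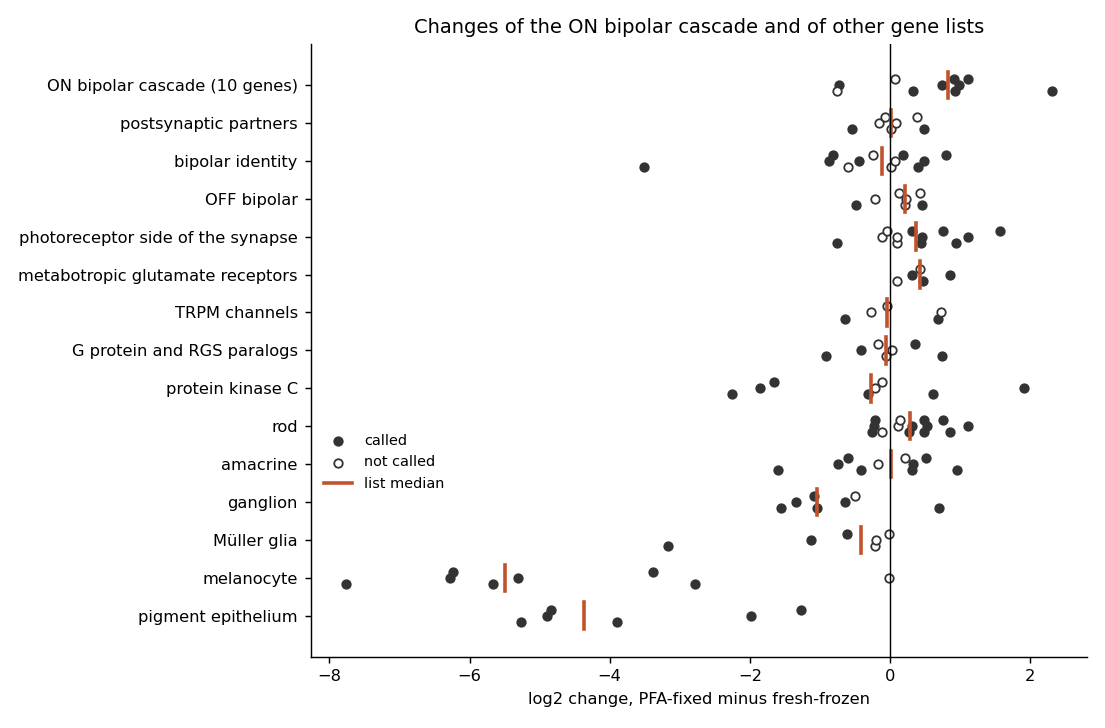
Points are genes, placed by their log2 change (PFA-fixed minus fresh-frozen, horizontal axis) in rows for the cascade and for 14 other lists. Filled points passed the test at an adjusted p of 0.05, and the bar is the list median. The cascade has a median of 0.83, bipolar identity of -0.11, and the melanocyte and pigment epithelium lists of -5.49 and -4.37.

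On the photoreceptor side of the same synapse, 7 of 12 measured genes rose, 1 fell and 4 were not called, with a median of 0.38. The presynaptic calcium channel gene CACNA1F and its regulator CABP4, both genes of incomplete stationary night blindness, rose by 1.57 and 1.11. The channel beta subunit gene CACNB2 and the active zone gene RIMS2 rose by 0.94 and 0.76. UNC119, a trafficking protein of photoreceptor synapses, differed by -0.12 (limma adjusted p = 0.137; -0.42 and called with rod marker centring). These terminals belong to photoreceptors, whose 14 markers had a median change of 0.29, with 8 higher and 3 lower. Of 8 measured night blindness genes outside the cascade, 5 rose and 2 fell. SLC24A1, the rod sodium-calcium-potassium exchanger, rose by 0.76, while RDH5, a retinol dehydrogenase of the pigment epithelium, fell by 1.99 together with the other markers of that tissue.

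Paralogs of the cascade genes were read from the same fit. Of 5 measured metabotropic glutamate receptor genes besides GRM6, 3 rose and none fell, and the largest change was that of GRM7 (0.85; limma adjusted p = 0.00460). GRM4 and GRM5 rose by 0.47 and 0.31. None of these 3 was called with rod marker centring (0.17, 0.01 and 0.55 for GRM4, GRM5 and GRM7), where GRM6 still was (0.81). Among 5 other TRPM channel genes, TRPM4 rose by 0.68 (0.38 and not called with rod marker centring), TRPM3 fell by 0.65 and 3 were not called.

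The G protein and RGS paralogs were split, with 2 of 7 higher and 2 lower. GNAI1 rose by 0.74, GNAI2 fell by 0.91 and GNAZ fell by 0.41 (-0.03 with bipolar list centring), all alpha subunits of the Gi family to which GNAO1 belongs. RGS9, the photoreceptor relative of RGS7 and RGS11, rose by 0.36 (limma adjusted p = 0.00559; 0.05 and not called with rod marker centring). RGS9 was also not called under quantile normalization (0.15).

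Of 8 protein kinase C genes besides PRKCA, 2 rose and 4 fell. PRKCE rose by 0.62, while PRKCD and PRKCQ fell by 2.26 and 1.85. PRKCQ, known from T cells and muscle, averaged 1.24 ± 0.45 log2 CPM in PFA-fixed and 3.09 ± 0.42 log2 CPM in fresh-frozen retina (SD, n = 4 each). PRKCI, an atypical isoform gene, differed by -0.11 (limma adjusted p = 0.292; -0.41 and called with rod marker centring).

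The size of every change depends on how libraries are scaled. With the deposited scaling 49.4% of called genes were higher in fixed retina, against 28.1% after centring on the 14 rod markers and 73.5% after centring on the bipolar identity list. Those scalings set the median change of all genes to -0.32 and 0.36. GRM6, TRPM1, LRIT3, GPR179, RGS11 and PRKCA remained called higher and PCP2 called lower under both, under quantile normalization and under median centring. Across these 4 scalings the change of RGS11 ran between 2.01 and 2.69, that of GRM6 between 0.81 and 1.49, and that of PCP2 between -1.04 and -0.36. In the 1.5-fold test, RGS11 and, downward, PCP2 were the genes of the cascade that passed with rod marker centring, and GRM6, LRIT3 and RGS11 those that passed with quantile normalization. The bipolar identity list had a mean change of -0.38 beside a median of -0.11, and its lowest change was that of CA8 at -3.51. Centring on the mean of that list therefore leans on CA8.

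**Figure D5:**
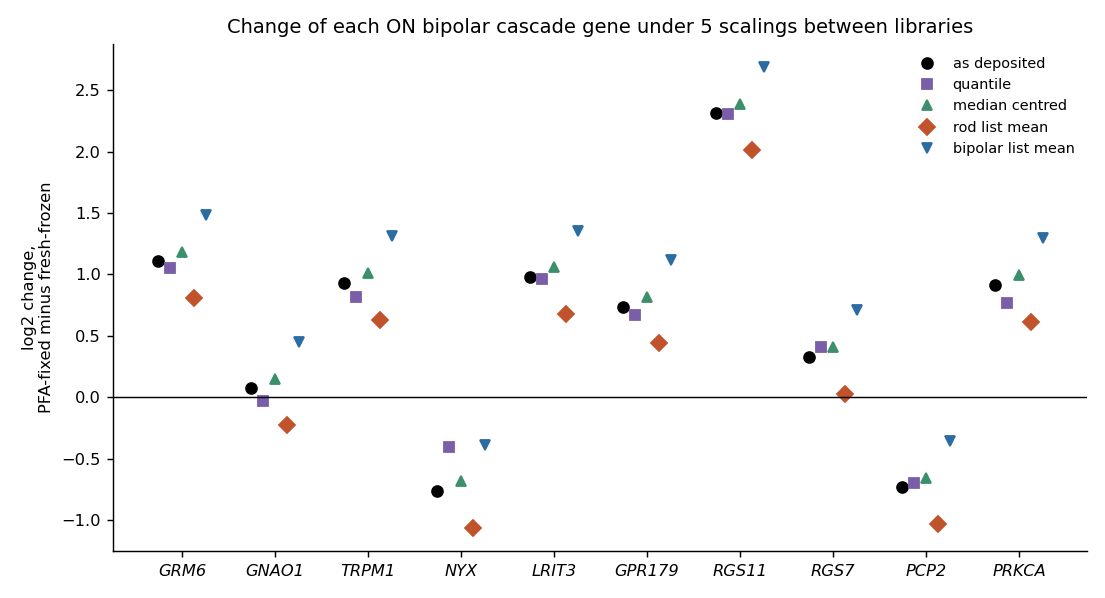
The log2 change of each cascade gene (PFA-fixed minus fresh-frozen, vertical axis) is shown for the deposited values and 4 other scalings between libraries. GNAO1 lies on both sides of 0, RGS7 is at 0.03 with rod marker centring, and every gene except GNAO1 keeps its sign in these 5 scalings.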

How the data were processed

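Total RNA of 8 retina samples had been sequenced, 4 PFA-fixed and 4 fresh-frozen. The submitters' processing notes name kallisto 0.48.0, edgeR and limma, without role or order. Strand setting, filter on low genes and transcript reference: not given in the sources used here. Values were deposited by the authors as log2 CPM and share a lowest value of -3.12. Over all genes, CPM summed to 1021460 to 1058310 in PFA-fixed and 947376 to 975641 in fresh-frozen libraries. The deposited libraries were thus not at a common total, and their totals differed with the preparation. Depth was estimated from the spacing of low values (61.4 to 68.8% of values up to 1 CPM above the lowest were whole reads within 0.1 of a read), too few to run a count test. The lowest value, 0.115 CPM, makes log2 changes of low genes smaller than the true ones.

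All 12824 genes were fitted with limma 3.58.1 (intensity trend, group as the only term) in R 4.3.3 on the deposited values, with Benjamini-Hochberg adjustment at 0.05, and with limma's treat at 1.5-fold. The step was tested on simulated data with independent noise and few changed genes. In the real data 68.7% of genes were called, so the simulation does not show how the fit behaves in that setting. Changes are PFA-fixed minus fresh-frozen. No gene was added to or dropped from the table. The 10 genes, the lists and the tests were chosen with earlier results of these data known. Beside the 10 genes, the text names the 2 most abundant genes of a list and up to 3 called genes with the largest change, and leaves some of them out, a few of which are not reported here. All 10 symbols matched the gene table of assembly UU_Cfam_GSD_1.0, used only for names and neighbours. Levels are not per length, so the order of genes by abundance and their shares of a sum may in part reflect length. Alternatives were quantile normalization, centring on library medians, on the mean of 14 rod markers and on the mean of 12 bipolar identity genes, log2(CPM + 1), a minimum mean of 3 log2 CPM, limma without trend, the replicate number as a block, and leaving out each library.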

Additional observations from a re-analysis of the deposited data

How the results depend on the processing

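GRM6, TRPM1, LRIT3, GPR179, RGS11 and PRKCA were called higher and PCP2 lower in each alternative run, leaving out each library included. RGS7, GNAO1 and NYX changed calls. GNAO1 changed sign with quantile normalization (-0.034) and rod marker centring (-0.23, called lower), and was called higher with median centring (0.15) and bipolar list centring (0.45). NYX was called lower with log2(CPM + 1) (-0.46), rod marker centring (-1.07) and limma without trend (limma adjusted p = 0.0349), where RGS7 lost its call (limma adjusted p = 0.0669). Of the 10 genes, 5 passed the 1.5-fold test as deposited, 3 with quantile normalization, 2 with rod marker centring (RGS11 and PCP2), 6 with bipolar list centring, 4 with limma without trend, 5 in the other settings, and 4 or 5 without single libraries. The causes were not tested beyond the scaling itself. NYX could not be fitted with a minimum mean of 3 log2 CPM.

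With the replicate block, 8799 genes and 8 of the 10 were called, against 8804 and 8 without it. Same-numbered libraries deviated together only in part (correlations across genes of 0.05, 0.15, -0.09 and 0.22 for numbers 1 to 4), and not every number exceeded 0.1, so the numbers were not taken as pairs. Of the fixed libraries 3 of 4 correlated best with their own number, which is a hint from the data and not from the design. The count over all genes lay between 8338 and 8880 in the other alternatives, except 7140 of 10153 with the minimum mean. Depth limits NYX, which rests on about 10.01 reads in the shallowest estimates.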

Other observations

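Among all 45 pairs of the 10 genes, TRPM1 and PRKCA had the steadiest ratio within groups, singled out after the values were seen. The log2 ratio of TRPM1 to PRKCA was 1.43 ± 0.05 in PFA-fixed and 1.41 ± 0.05 in fresh-frozen retina (SD, n = 4 each), while each gene alone had an SD of 0.17 to 0.20 within a group. GPR179 to PRKCA was the next steadiest within groups, at -1.20 ± 0.06 in PFA-fixed and -1.03 ± 0.08 in fresh-frozen retina. This ratio was lower in every fixed library than in any fresh-frozen one, while that of TRPM1 to PRKCA overlapped. Both genes of a ratio come from the same library, so a constant added to all its log2 values cancels, and no test was made.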
